A study of Mus musculus with 16 samples.

Results

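Of the 16 RNA-seq libraries of mouse hematopoietic stem cells in this study, 8 carried the later of the 2 dates written in the sample descriptions, and these 8 are described here. They came from 4 mice. Mice 483 and 484 were young and mice 485 and 486 were old, and each mouse gave 1 vehicle library and 1 dmPGE2 library. The 8 libraries were picked by the date in their names and by no measured value. The other 8 libraries, from young mice 477 and 478 and old mice 479 and 480, carried the day before. These days are named date 1 and date 2 below. What was done on each day (sort, extraction or library) is not given in the sources.

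The study asked how a short pulse of dmPGE2 changes stem cells of young and aged mice. Bone marrow cells taken directly from the animal were kept for 1 h at 37 °C with dmPGE2, a stabilized analogue of prostaglandin E2 carrying methyl groups, or in vehicle alone. Stem cells were then sorted and their total RNA was extracted. The material of each mouse had been split, so vehicle and dmPGE2 are compared here within a mouse. The groups on date 2 were young vehicle, young dmPGE2, old vehicle and old dmPGE2, each with the same 2 mice per age. Genotype, strain, exact age and the markers used for the sort are not stated. The hour at 37 °C before sorting was shared by all groups, vehicle included.

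Prostaglandin E2 acts through 4 G protein-coupled receptors, encoded by Ptger1 to Ptger4. EP2 and EP4 raise cyclic AMP, which activates protein kinase A and, through it, the transcription factor CREB. Immediate-early genes such as the Fos, Jun, Egr and Nr4a families carry CREB or serum response elements, need no new protein to be switched on, and rise within minutes of many kinds of signal. In hematopoietic stem cells prostaglandin E2 is known for effects on survival, homing and engraftment.

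Library totals on date 2 ran from 12.96 to 15.7 M counts (14.95 ± 0.852 M, SD, n = 8), against 16.7 to 19.2 M on date 1. Levels are given as CPM, counts scaled to the total of the library. A gene with 0 counts on date 2 could still stand at 0.191 to 0.231 CPM (the level of 3 counts, counting error only). All 12 stem cell markers were detected. Their summed level was 3079 to 3305 CPM in the young and 4430 to 4536 CPM in the old libraries, against 4740 to 6053 CPM on date 1. Markers of other blood cells were present as well, and some of their sums also differed between the ages. The mast cell, basophil and eosinophil sum ran from 1858 to 9033 CPM without a split by age, against 580 to 868 CPM on date 1. It was above the stem cell sum in both libraries of mice 483, 484 and 485 and below it in those of mouse 486. The erythroid sum was 3792 to 4284 CPM in the young and 2139 to 2386 CPM in the old libraries, and the myeloid progenitor sum 3702 to 4947 CPM and 2587 to 2799 CPM. Such levels can come from other cells in the sort or from stem cells themselves, which cannot be told apart in bulk RNA, nor can fewer cells of a type from less RNA per cell. Age was the main axis among the 8 libraries, with 39.0% of the variance of the 1000 most variable genes on the first component. On the second component (16.8%) the vehicle library of mouse 484 and the dmPGE2 library of mouse 485 stood apart from the other 6, at -37.1 and -34.5 against 7.37 to 16.1. Results without these mice are given beside the counts.

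Genes that rose with dmPGE2 on date 2 included nuclear receptors (Nr4a1, Nr4a2), AP-1 and zinc-finger factors (Fos, Junb, Egr1, Klf4), the Hes and Hey repressors, growth-arrest genes (Cdkn1a, Btg2) and feedback regulators (Dusp2, Dusp5, Rgs2, Socs3). The changes were small, and 9 of the 29 rising genes were on the list of immediate-early genes. Of 13356 genes tested, 29 rose and 2 fell at an adjusted p under 0.05 (edgeR quasi-likelihood test with mouse as a block, Benjamini-Hochberg, 4 pairs), that is 0.217% and 0.015% of the genes, 0.232% together. The 29 genes were each higher with dmPGE2 in 4 of 4 mice, which the paired test that chose them nearly fixes. Their changes ran from 1.20-fold to 3.16-fold with a median of 1.54-fold, and 23 of the 29 were under 2-fold. The median log2 change of all genes was -0.00, and 653 genes had an unadjusted p under 0.05 where 668 would be 5% of the genes. The count depended on single mice. It was 7 without mouse 483, 15 without 484, 31 without 485, 0 without 486 (smallest adjusted p 0.0787) and 12 without both mice that stood apart. The 31 without mouse 485 were not the same list, since 21 of them were among the 31 called with all mice. DESeq2 called 82 genes and limma-voom 47, and both sets held all 31. With mice left out 1 at a time, Btg2, Nr4a1, Hes1, Cdkn1a and Egr1 were lost only without mouse 486. Dusp2, Hspa5, Id1, Per1, Pim3, Sertad1, Rsrp1 and Rn45s were lost whichever mouse was left out. Without mouse as a block edgeR called 0 genes (smallest adjusted p 0.181).

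**Figure D1:**
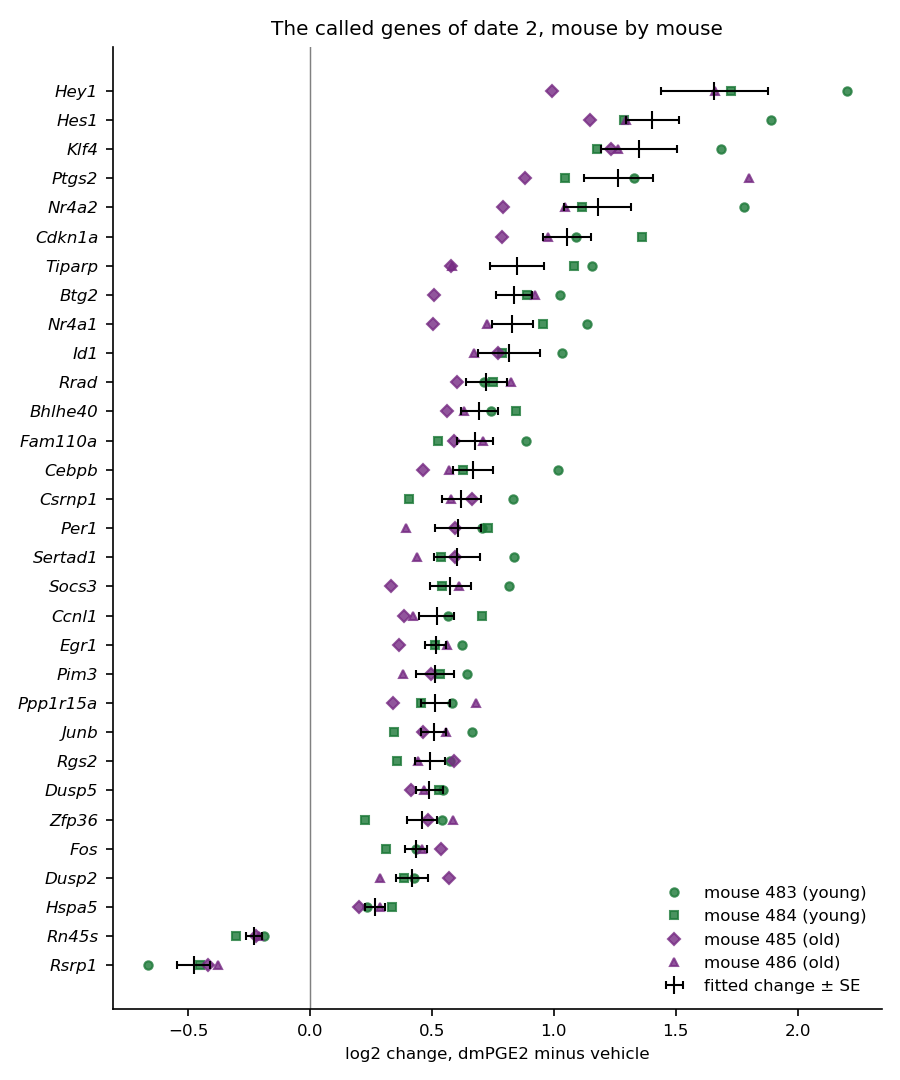
Log2 change from vehicle to dmPGE2 on date 2 for the 31 called genes (rows); symbols are the 4 mice, green for young and purple for old, and the black bar is the fitted change with its standard error. All 29 rising genes lie right of 0 in every mouse, with mouse 483 furthest right in 17 of them and mouse 485 furthest left in 17.

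Among the called genes, the Notch-type repressors Hey1 and Hes1 showed the largest rises. Hey1, which encodes a basic helix-loop-helix repressor downstream of Notch, stood at 9.26, 10.5, 12.7 and 6.75 CPM in the vehicle libraries of mice 483, 484, 485 and 486, and at 42.6, 34.7, 25.0 and 21.3 CPM with dmPGE2. The lowest dmPGE2 level was above the highest vehicle level. The rise was 3.16-fold (log2 1.66 ± 0.22 SE, adjusted p = 0.0186). Hes1, a repressor of the same family (chromosome 16, 30065357 to 30067796, mm10), went from 126, 140, 317 and 188 CPM to 463, 338, 690 and 455 CPM in the same order of mice. Its groups did not overlap either, which held for 0.794% of tested genes with dmPGE2 higher. The rise of Hes1 was 2.65-fold (log2 1.40 ± 0.11, adjusted p = 0.00333). In edgeR 2 of the 18 tested genes of the Notch list rose, these 2, and 0 fell, beside 0.217% of all tested genes that rose. The median log2 change of the list was 0.02, beside -0.00 for all genes. The count was 1 without mouse 483 or 484 and 0 without 486. DESeq2 called 3, Nrarp as well. The receptors Notch1 and Notch2 had log2 changes of -0.07 and -0.08, and the DNA-binding partner Rbpj 0.02, with no call. The ligand Dll4 (0.93, adjusted p = 0.781) and the feedback gene Nrarp (0.60, adjusted p = 0.308) were higher in 4 of 4 mice without passing the edgeR test.

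Nuclear receptors of the Nr4a family, ligand-independent factors that follow cyclic AMP in many cells, were also among the rising genes. Nr4a2 (chromosome 2, 57107226 to 57124003, minus strand) was at 75.2, 57.8, 182 and 130 CPM with vehicle and 256, 124, 310 and 265 CPM with dmPGE2, a 2.27-fold rise (log2 1.18 ± 0.14, adjusted p = 0.00887). Nr4a1 (chromosome 15, 101266846 to 101274794, plus strand) was among the most abundant of the rising genes. Its vehicle levels of 1609, 1350, 2510 and 1800 CPM became 3489, 2593, 3500 and 2929 CPM, all above the highest vehicle library. The fitted rise of Nr4a1 was 1.78-fold (log2 0.83 ± 0.08, adjusted p = 0.00714). Nr4a3 was higher in 4 of 4 mice as well (log2 1.01), with an adjusted p of 0.781.

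Among the zinc-finger factors, Egr1 had the highest level and the smallest relative error. It was at 2452, 2390, 5457 and 3356 CPM with vehicle and at 3726, 3376, 6913 and 4872 CPM with dmPGE2. The 2 groups overlapped, since old mouse 485 had more Egr1 without dmPGE2 than 3 mice had with it, yet every mouse moved up, by log2 0.36 to 0.62. The rise was 1.43-fold (log2 0.52 ± 0.04, adjusted p = 0.00333). Klf4, a zinc-finger factor of monocytes and of growth arrest, went from 14.8, 12.9, 21.2 and 15.4 CPM to 47.4, 29.0, 49.4 and 36.5 CPM without overlap (2.55-fold, log2 1.35 ± 0.16, adjusted p = 0.00887).

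The AP-1 genes split. Fos was at 1457, 1638, 2478 and 1788 CPM with vehicle and at 1948, 2012, 3538 and 2417 CPM with dmPGE2 (log2 0.44 ± 0.05, adjusted p = 0.00714). Junb, its dimer partner, rose from 1171, 1208, 2148 and 1523 CPM to 1833, 1519, 2911 and 2201 CPM (log2 0.51 ± 0.05, adjusted p = 0.00714). Jun was not called: 902, 709, 1507 and 737 CPM with vehicle stood against 857, 683, 1579 and 729 CPM with dmPGE2. Its log2 change was 0.00 ± 0.05 (adjusted p = 0.999), and its sign turned when mouse 485 or 486 was left out. Fosb, another Fos family member, was higher in 4 of 4 mice (log2 0.88 ± 0.17), at an adjusted p of 0.139.

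**Figure D2:**
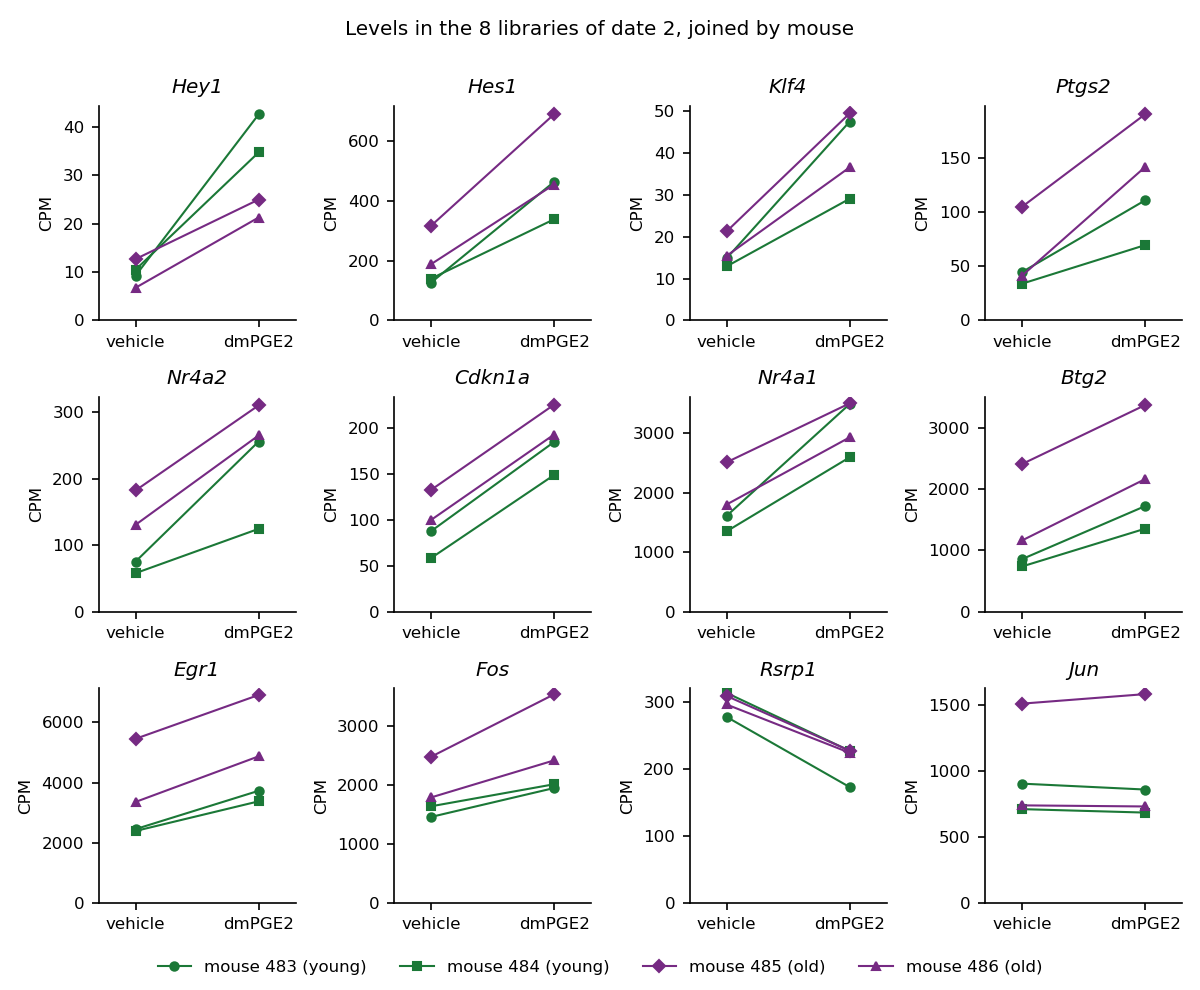
CPM of 12 genes in the 8 libraries of date 2 (linear axes from 0), each line joining the vehicle and dmPGE2 library of 1 mouse. The lines of the 10 rising genes all slope up, those of Rsrp1 all slope down and those of Jun run flat; mouse 485 starts highest for most rising genes.

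Across the 30 immediate-early genes listed, 9 rose, 0 fell and 21 were not called, beside 0.217% of all tested genes that rose. In all, 19 of the 30 were higher in all 4 mice, beside 7.02% of all tested genes. The median log2 change of the 30 was 0.51, beside -0.00 for all genes. The remaining called members were Btg2, Csrnp1 and Zfp36. Btg2, an antiproliferative gene, was at 857, 737, 2408 and 1162 CPM with vehicle and at 1722, 1353, 3370 and 2162 CPM with dmPGE2 (log2 0.84 ± 0.07, adjusted p = 0.00333). Csrnp1, a nuclear factor, had a log2 change of 0.62 ± 0.08 (adjusted p = 0.0137). Zfp36, whose protein speeds the decay of inflammatory mRNAs, had one of 0.46 ± 0.06 (adjusted p = 0.0186). Myc (-0.14), Klf6 (-0.05) and Srf (-0.01) were the listed genes below 0, none of them called. Without mouse 483 the count of called immediate-early genes was 4, without 486 it was 0, and with DESeq2 it was 16.

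Upstream DNA of the rising genes is shown for the 3 with a full cyclic AMP response element and for 3 with several copies of its TGACG core, because CREB is the factor that cyclic AMP acts through. Sequences are from RefSeq on build GRCm38.p6, read 5′ to 3′ on the strand of the gene, and end at or before the last base upstream of the annotated start. Capitals mark the core TGACG or its reverse complement, and in the first 3 lines the full element TGACGTCA, which holds the core on both strands.
Btg2, chr1:134079284-134079351, minus strand: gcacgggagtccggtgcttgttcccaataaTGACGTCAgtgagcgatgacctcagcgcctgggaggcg
Ppp1r15a, chr7:45526269-45526310, minus strand: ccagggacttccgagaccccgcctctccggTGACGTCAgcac
Ccnl1, chr3:65958250-65958297, minus strand: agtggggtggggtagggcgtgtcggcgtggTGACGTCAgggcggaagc
Nr4a1, chr15:101266596-101266840, plus strand: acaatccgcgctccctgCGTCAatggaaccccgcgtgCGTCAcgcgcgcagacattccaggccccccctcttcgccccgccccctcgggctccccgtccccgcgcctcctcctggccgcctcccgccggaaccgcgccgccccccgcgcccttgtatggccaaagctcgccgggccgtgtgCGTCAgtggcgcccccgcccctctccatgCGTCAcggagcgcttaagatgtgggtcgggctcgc
Nr4a2, chr2:57124080-57124233, minus strand: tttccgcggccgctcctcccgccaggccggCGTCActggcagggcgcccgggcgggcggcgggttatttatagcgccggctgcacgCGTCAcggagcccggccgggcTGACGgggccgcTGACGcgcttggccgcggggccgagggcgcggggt
Fos, chr12:85473731-85473858, plus strand: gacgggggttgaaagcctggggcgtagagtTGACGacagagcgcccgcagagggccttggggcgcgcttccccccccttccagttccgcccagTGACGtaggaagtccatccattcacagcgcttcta

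The match in Btg2 begins 166 bases before the start, and those in Ppp1r15a and Ccnl1 lie 12 and 18 bases before it. Nr4a1 and Nr4a2 each hold 4 copies of the core upstream of the start. Promoter windows of 300 bases were at hand for 23 of the 29 rising genes, 4 of them with more than 1 annotated start. Hey1, Hes1, Egr1, Id1, Rrad and Bhlhe40 had no window and are not in the shares. The core TGACG, on either strand, was in 17 of these 23 (73.9%), against 34.9% of the 10173 tested genes with a window. The windows reach past the annotated start, and the only match in Ptgs2 and in Dusp2 lay past it, not upstream. The full element was in 3 of 23 (13.04%) against 3.56%. The AP-1 letters TGANTCA were in 2 of 23 (8.70%) against 6.39%. Over all 32851 windows the shares were 20.8%, 1.79% and 7.81%. These are counts of letters, not of bound sites.

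Among targets of cyclic AMP and CREB other than the immediate-early genes, 22 were tested, 4 rose (Ptgs2, Rgs2, Per1, Hspa5) and 0 fell. Of all tested genes 0.217% rose. The median log2 change of the 22 was 0.43, beside -0.00 for all genes. Ptgs2, the inducible cyclooxygenase that makes the precursor of prostaglandin E2, was at 44.7, 33.9, 105 and 41.4 CPM with vehicle and at 111, 69.6, 191 and 142 CPM with dmPGE2 (2.40-fold, log2 1.26 ± 0.14, adjusted p = 0.00887). It was the only called gene of 21 in the list of prostaglandin receptors and enzymes. Rgs2, which shortens G protein signals, went from 384, 335, 257 and 268 CPM to 565, 425, 381 and 358 CPM (log2 0.49 ± 0.06, adjusted p = 0.0123). Here the young mice had the higher levels, and the 2 treatments overlapped. Per1, a clock gene induced through CREB, had a log2 change of 0.61 ± 0.09 (adjusted p = 0.0466). Hspa5, the main chaperone of the endoplasmic reticulum, had the smallest rise of the 29, at log2 0.27 ± 0.04 (adjusted p = 0.0401). The cyclic AMP early repressor gene Crem was at 14.4, 10.0, 18.5 and 10.7 CPM with vehicle and at 31.0, 19.1, 24.9 and 22.3 CPM with dmPGE2. That is log2 0.90 ± 0.19 and no overlap between the groups, which held for 0.794% of tested genes in this direction, but the adjusted p was 0.228. Pde4b, which degrades cyclic AMP, was higher in 4 of 4 mice too (log2 0.49 ± 0.10, adjusted p = 0.234). DESeq2 called 9 of the 22, Crem and Pde4b among them, whereas the edgeR count was 2 without mouse 484 and 0 without 483 or 486.

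The receptors of the ligand itself were not called. Ptger4, encoding EP4, was at 94.3, 87.4, 210 and 153 CPM with vehicle and at 70.6, 78.8, 168 and 124 CPM with dmPGE2. It was lower in 4 of 4 mice (log2 -0.28 ± 0.08, adjusted p = 0.646), a direction shared in all mice by 6.38% of tested genes. Ptger1 and Ptger3 had log2 changes of -0.02 and 0.02, and both signs turned when single mice were left out. Ptger2, encoding EP2, was between 0.319 and 2.55 CPM with vehicle and between 0 and 1.71 CPM with dmPGE2, close to the limit of detection, so no fold is given. Components of the pathway between receptor and CREB (Gs, adenylyl cyclases, protein kinase A) had 0 of 30 members called in edgeR, DESeq2 or limma-voom, 1 at an unadjusted p under 0.05 in edgeR, and a median log2 change of 0.06.

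Feedback regulators and growth-arrest genes made up a further group. Dusp5, a phosphatase of ERK kinases, went from 256, 190, 379 and 247 CPM to 369, 272, 497 and 336 CPM (log2 0.49 ± 0.06, adjusted p = 0.00887). Dusp2, a nuclear phosphatase of the same family, was at 264, 226, 205 and 224 CPM with vehicle and at 350, 292, 300 and 269 CPM with dmPGE2 (log2 0.42 ± 0.07, adjusted p = 0.05 after rounding, just under the threshold). Of 16 tested genes of MAP kinase feedback 2 rose and 0 fell, beside 0.217% of all tested genes that rose. The median log2 change of the 16 was 0.30, beside -0.00 for all genes. The count was 1 without mouse 485 and 0 without 483, 484 or 486. Dusp6 (log2 0.50, adjusted p = 0.0664) stayed just outside. Cdkn1a, which encodes the cell cycle inhibitor p21, was at 87.6, 58.3, 133 and 99.8 CPM with vehicle. With dmPGE2 it was at 185, 149, 225 and 193 CPM, all higher than any vehicle library (2.07-fold, log2 1.05 ± 0.10, adjusted p = 0.00457). Of the 23 genes of stress growth arrest 3 rose: Cdkn1a, Ppp1r15a (log2 0.51 ± 0.06) and Sertad1 (0.60 ± 0.10), with 1 called without mouse 483 and 0 without 486. The other 20 genes of this list were not called, among them Mdm2 (0.06), Ccng1 (0.17) and Bbc3 (-0.10). The median log2 change of the list was 0.15.

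Other rising genes named by size were Tiparp (log2 0.85 ± 0.11), an ADP-ribosyltransferase, Id1 (0.82 ± 0.13), an inhibitor of helix-loop-helix factors, Rrad (0.72 ± 0.09), a small GTPase, Bhlhe40 (0.69 ± 0.08), a repressor, Fam110a (0.68 ± 0.07) and Cebpb (0.67 ± 0.08), a myeloid factor of emergency granulopoiesis. Chosen after their values were seen, like Zfp36 above, to complete the 29, were Socs3 (0.58 ± 0.08), a brake on cytokine receptors, Ccnl1 (0.52 ± 0.07), a cyclin of RNA processing, and Pim3 (0.51 ± 0.08), a survival kinase.

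The 2 genes that fell were Rsrp1 and Rn45s. Rsrp1, an arginine and serine rich protein gene (chromosome 4, 134923625 to 134927370), went from 278, 314, 309 and 296 CPM to 173, 227, 227 and 224 CPM. The groups were apart, which held for 1.01% of tested genes in this direction. The fall was 1.39-fold (log2 -0.48 ± 0.07, adjusted p = 0.0284). Rn45s, the ribosomal RNA precursor, was 1.17-fold lower with dmPGE2 (log2 -0.23 ± 0.03, adjusted p = 0.0284). Mycn, a Myc family factor of stem cells, was at 135, 165, 227 and 223 CPM with vehicle and at 107, 97.95, 163 and 166 CPM with dmPGE2. It was lower in 4 of 4 mice by a similar amount (log2 -0.48 ± 0.09), at an adjusted p of 0.0811.

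**Figure D3:**
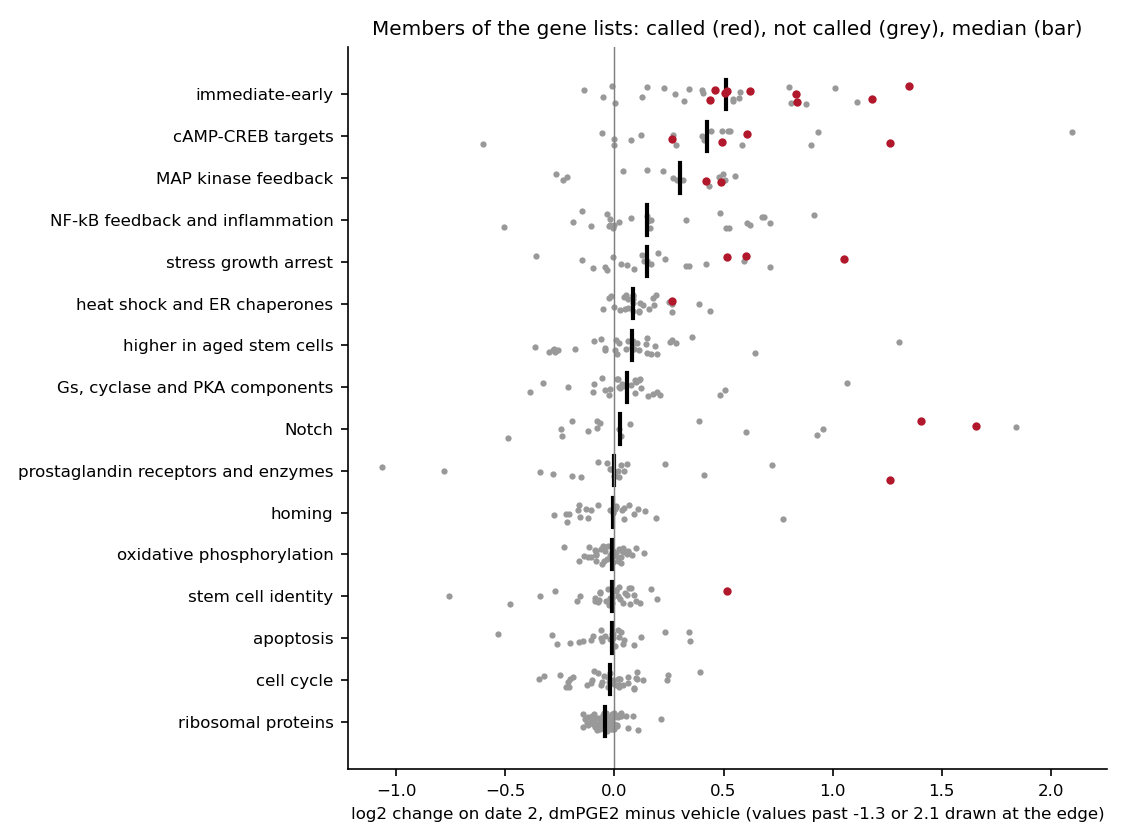
Log2 change on date 2 for the tested members of 16 gene lists (rows, ordered by median); red points were called, grey points were not and black bars are medians. Immediate-early genes, cAMP-CREB targets and MAP kinase feedback lie furthest right, with medians of 0.51, 0.43 and 0.30.

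The remaining lists had at most 1 called gene in edgeR, beside 0.232% of all tested genes called. NF-kB feedback and inflammation genes had 0 of 26 called in edgeR (median log2 0.15, 6 at an unadjusted p under 0.05), while DESeq2 called 2, the inhibitors Nfkbid and Nfkbiz, and limma-voom 1. Homing genes had 0 of 26 called (median -0.01, 3 unadjusted), apoptosis genes 0 of 27 (-0.01, 1 unadjusted) and cell cycle genes 0 of 42 (-0.02, 5 unadjusted). Of these lists DESeq2 called 1 gene, Mcl1, a survival factor in the apoptosis list, and limma-voom called 0. Ribosomal protein genes had 0 of 76 called (-0.04, 0 unadjusted), oxidative phosphorylation genes 0 of 43 (-0.01, 0 unadjusted) and genes with higher levels in old stem cells, from the literature, 0 of 36 (0.08, 2 unadjusted), with 0 calls by DESeq2 and limma-voom. Heat shock and endoplasmic reticulum chaperones had 1 of 29 called in edgeR, Hspa5 (median 0.09). In all 4 mice 13 of the 29 were higher, beside 7.02% of all tested genes. DESeq2 called 3 of them (Atf4, Dnajb1, Hspa5) and limma-voom 2. Stem cell identity genes had 1 of 36 called in edgeR, Egr1 again (median -0.01), and 2 with DESeq2 (Egr1, Mycn) and with limma-voom. The homing receptor gene Cxcr4 was at 54.1, 60.0, 46.01 and 28.7 CPM with vehicle and 58.1, 60.9, 46.4 and 33.4 CPM with dmPGE2 (log2 0.11 ± 0.11, adjusted p = 0.994). Among the 11 lists of cell type markers 1 gene was called in edgeR, Klf4 in the monocyte list, and DESeq2 called F13a1 of that list as well. The summed level of mast cell, basophil and eosinophil markers was 7551, 3805, 6775 and 1858 CPM with vehicle and 9033, 5776, 6453 and 3468 CPM with dmPGE2, higher in 3 of 4 mice. The erythroid sum was 3792, 4284, 2386 and 2344 CPM with vehicle and 3942, 4026, 2139 and 2265 CPM with dmPGE2, lower in 3 of 4 mice. Their part in the changes of single genes was not tested.

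The size of the rise differed between mice, and so did the starting level. Over the 29 rising genes the median log2 change was 0.82 in mouse 483, 0.63 in 484, 0.57 in 485 and 0.59 in 486. Mouse 485 had the highest vehicle level for 27 of the 29 genes and the smallest change for 17. Vehicle level enters both measures, so the second count cannot be read apart from the first. Grouped by age, the median log2 change of the 29 was 0.70 in young and 0.54 in old mice. The age difference itself, tested as old minus young over 13356 genes, gave 0 calls in edgeR (0%, smallest adjusted p 0.0931, 640 genes at an unadjusted p under 0.05), 0 with limma-voom and 8 with DESeq2. With 2 mice per age and 2 residual degrees of freedom this does not show that the ages responded alike. Tiparp (log2 1.12 young, 0.58 old), Nr4a1 (1.04 and 0.62) and Nr4a2 (1.45 and 0.92) had unadjusted p of 0.00515, 0.0021 and 0.0362, and adjusted p of 0.999.

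The smallest p of the age comparison belonged to Rhd, Cyr61 and Tacr1. Rhd, a red cell membrane protein gene, was at 114 and 128 CPM in young vehicle and 116 and 124 CPM in young dmPGE2. In the old mice it went from 38.5 and 24.4 CPM to 10.1 and 6.96 CPM (adjusted p of the age difference 0.0931, edgeR). Cyr61, a matricellular immediate-early gene, was at 7.67 and 6.64 CPM with vehicle and 23.5 and 18.1 CPM with dmPGE2 in young mice. In old mice it was at 246 and 163 CPM and at 319 and 208 CPM (adjusted p of the age difference 0.445, edgeR). The starting levels of Cyr61 differed far more between the ages than its levels moved with dmPGE2. Tacr1, a tachykinin receptor gene, had 0 counts in both young vehicle libraries, 1.77 and 4.00 CPM with dmPGE2, and 10.6 and 19.2 CPM against 13.1 and 19.0 CPM in the old mice.

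Vehicle cells of date 2 had higher levels of many early-response genes than vehicle cells of date 1. This comparison shares the vehicle libraries of date 2 with the dmPGE2 comparison, so its values are given side by side and not counted together. In the 8 vehicle libraries, 1069 genes were higher and 403 lower on date 2 of 13369 tested (8% and 3.01%, 11% together, edgeR with a term for age). Vehicle cells of date 1 held Nr4a1 at 73.1 ± 36.6 CPM and those of date 2 at 1817 ± 497 CPM (SD over 4 mice per date), a log2 difference of 4.80 ± 0.21. Hes1 averaged 22.5 ± 12.99 and 193 ± 86.7 CPM, Dusp5 17.4 ± 2.497 and 268 ± 79.6 CPM, and Klf4 1.21 ± 0.552 and 16.1 ± 3.59 CPM. For each of these 4 genes the ranges of the dates did not overlap, and how many of all genes did so was not counted. Of the 30 immediate-early genes 25 were higher in vehicle cells on date 2 and 0 lower (median log2 1.63, all genes -0.01). Dusp2 was not called, at 250 ± 19.6 CPM on date 1 and 230 ± 24.5 CPM on date 2 (log2 -0.07 ± 0.08, adjusted p = 0.646), nor was Sertad1 (0.30 ± 0.13, adjusted p = 0.176). Everything that differed between the days goes with this comparison. The myeloid enzyme gene Mpo was at 5.77 ± 3.85 and 1447 ± 722 CPM, and the neutrophil gene S100a8 0.843 ± 0.165 and 154 ± 38.2 CPM. The stem cell genes Procr (log2 -0.55 ± 0.11) and Mecom (-0.44 ± 0.10) were lower on date 2. The call for Mecom was lost without mouse 480. The part of other cells in the vehicle levels was not tested. The vehicle count fell to 902 without mouse 477.

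**Figure D4:**
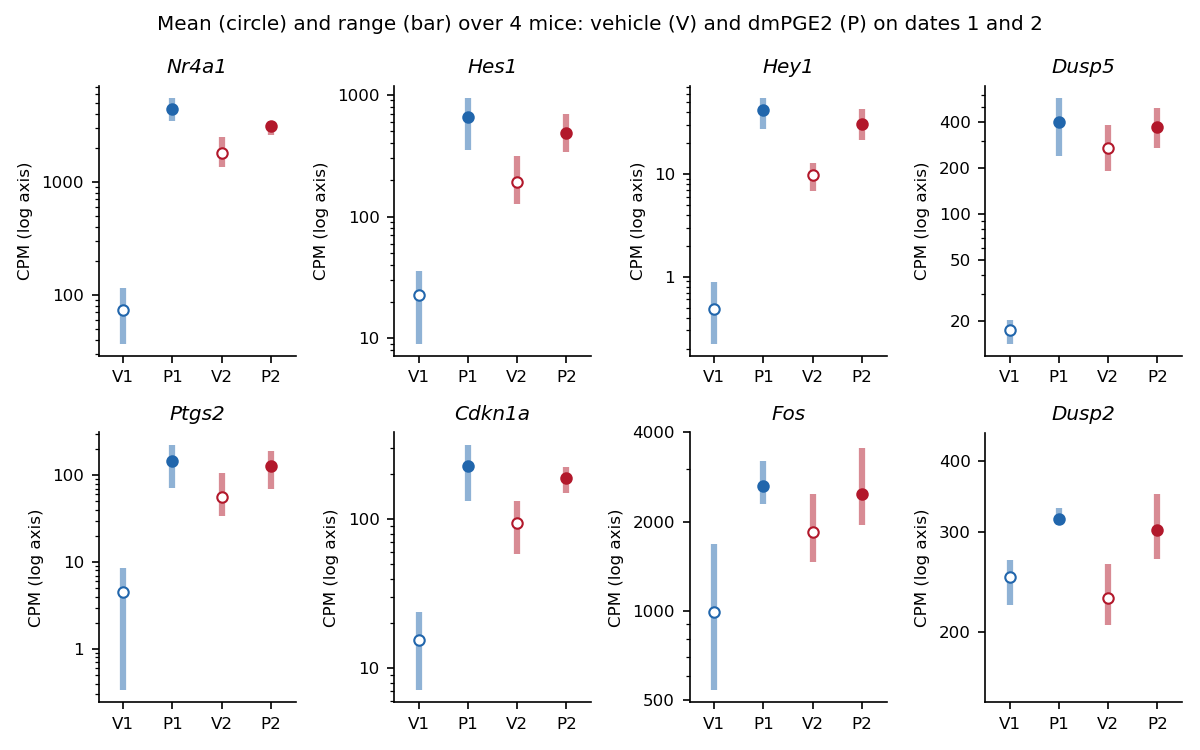
Mean CPM (circle) and range (bar) over 4 mice for 8 genes on log axes; V1 and P1 are vehicle and dmPGE2 on date 1 (blue), V2 and P2 those on date 2 (red). For 7 genes the vehicle mean of date 2 lies above that of date 1, by more on this log scale than the gap between the dmPGE2 means; Dusp2 has vehicle means of 250 and 230 CPM.

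With dmPGE2 the dates were nearer in fold terms than with vehicle for Nr4a1, Hes1, Ptgs2 and Fos. In the dmPGE2 libraries Nr4a1 was at 4467 ± 1111 CPM on the earlier day and 3128 ± 445 CPM on the later one (SD, n = 4). Hes1 averaged 659 ± 313 and 486 ± 147 CPM, Ptgs2 144 ± 82.5 and 128 ± 50.99 CPM, and Fos 2632 ± 421 and 2479 ± 736 CPM. These are levels of chosen genes with no test between the dates, and they do not stand for all genes.

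The direction of the response was shared with the mice of date 1, whose libraries were not used to call the 29 genes. In a fit of date 1 alone, chosen after seeing the data, 398 of 13250 genes rose (3%) and 123 fell (0.928%), 3.93% together. All 29 genes that rose on date 2 were among the 398, which is 100% of the shorter list and 7.29% of the longer. Their log2 changes there ran from 0.40 to 6.48 with a median of 2.67, against 0.27 to 1.66 with a median of 0.62 on date 2, and 28 of 29 were smaller on date 2. Of the 2 falling genes 1, Rsrp1, was also called there. Rn45s had a log2 change of 0.15 ± 0.06 on date 1, and its difference between the dates had an adjusted p of 0.088. Taken from the other side, 395 of the 398 genes that rose on date 1 were tested on date 2, and 163 of them (41.3%) were higher in all 4 mice, against 7.02% of all genes. Their median log2 change was 0.78 on date 1 and 0.20 on date 2. Of the 123 that fell on date 1, 25 (20.3%) were lower in all 4 mice of date 2, against 6.38% of all genes, with medians of -0.52 and -0.08.

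The difference between the dates was tested with all 16 libraries in 1 fit, which shares the libraries of date 2 with the counts above. Each difference is the log2 change on date 2 minus that on date 1, so a value above 0 can be a fall that was smaller on date 2. Of 13942 genes, 127 had a called difference below 0 and 11 one above 0 (0.911% and 0.0789%, 0.99% together). Nr4a1 (log2 6.09 ± 0.15 on date 1) differed by -5.26 ± 0.18 (adjusted p = 8.53e-09), Hey1 by -4.83 ± 0.37, Dusp5 by -4.00 ± 0.20, Hes1 by -3.59 ± 0.15 and Rgs2 by -2.21 ± 0.09. Smaller differences were those of Egr1 (-1.38 ± 0.12), Fos (-1.19 ± 0.21) and Hspa5 (-0.49 ± 0.08, adjusted p = 0.0072). The difference was not called for Per1 (-1.02 ± 0.23, adjusted p = 0.0647), Sertad1 (-0.64 ± 0.15, adjusted p = 0.0841) and Dusp2 (0.02 ± 0.09, adjusted p = 0.974). Dusp2 had a change of 0.40 ± 0.06 on date 1 and of 0.42 ± 0.07 on date 2. In the opposite direction, Cxcr4 had a log2 change of -0.77 ± 0.13 on date 1 and 0.11 on date 2, a difference of 0.88 ± 0.19 (adjusted p = 0.0474). The call for Cxcr4 was lost whichever mouse was left out (adjusted p 0.0563 to 0.145) and without the mouse block (0.14). Mycn and Rsrp1, lower with dmPGE2 on both dates, had differences of 0.74 ± 0.13 and 0.77 ± 0.12. The call for Mycn was lost without mouse 480 (adjusted p = 0.0505), and that for Rsrp1 without the block (0.0707) and without mice 484 and 485 (0.0828). The 11 differences above 0 became 1 (without mouse 480) to 8 (without 483) with a mouse left out. The count of 138 genes was 74 without mice 484 and 485.

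**Figure D5:**
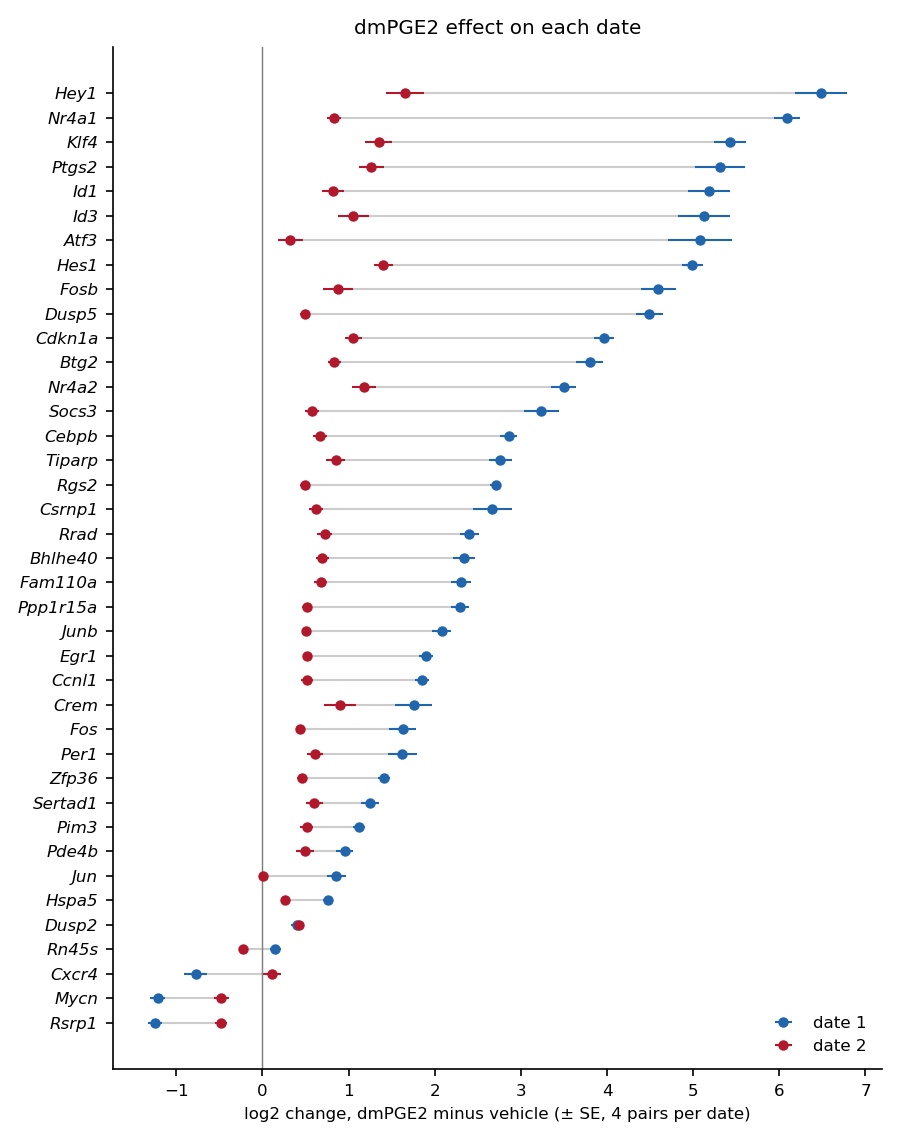
Log2 change from vehicle to dmPGE2 with its standard error on date 1 (blue, fit of 16 libraries) and date 2 (red, fit of date 2) for the 31 called genes and 8 others. Red points crowd between -0.48 and 1.66 while blue points reach 6.49; Dusp2 is where they coincide.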

How the data were processed

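Bulk RNA-seq of sorted mouse hematopoietic stem cells was analysed from the table of read counts per gene that the authors deposited, with no normalization. Per the submitters' processing notes the tools were featureCounts, Subread 1.5.1 and STAR 2.5.2b, with build mm10. The strand setting and annotation of the counting are not given in the sources, so counts of overlapping genes or close copies are less sure. There were 14829 genes, each above 0.5 CPM in at least 2 libraries, plus 2504 blank lines that were dropped. All columns were matched to samples by name.

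Comparisons were made in R 4.3.3 with edgeR 4.0.16 (glmQLFit and glmQLFTest, TMM, filterByExpr, robust dispersion), and the code was checked on simulated counts. A call needs a p below 0.05 after Benjamini-Hochberg adjustment. The effect on date 2 used its 8 libraries with mouse as a block (3 residual degrees of freedom). The pairing comes from the study's design text. Libraries of a mouse correlated at 0.322, 0.276, 0.376 and 0.345 (mice 483 to 486) after removal of treatment means. The closest dmPGE2 library of another mouse reached 0.310, 0.245, 0.224 and 0.221 with the same vehicle libraries. With age removed as well, libraries of a mouse correlated at 0.0244 (young) and 0.151 (old). Age and date differences were contrasts in blocked fits, and vehicle levels were fitted with age and date. Standard errors are the absolute log2 change over the square root of F. Per-mouse changes are differences of log2 CPM with a prior count of 2. Mice are separate animals.

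Named genes were the 15 largest called rises and falls with the same direction in 4 of 4 mice and a mean log2 CPM of at least 2, up to 6 called members per list by p, a fixed set (Nr4a, Fos and prostaglandin receptor genes and others), the 6 largest date differences each way, the 3 smallest p for age, and 4 cell markers. Uncalled list members named beside these were chosen after their values were seen. Members, lists and rules were chosen with earlier results of these data known. Predicted genes were not named. Promoter windows are from RefSeq (GRCm38.p6). Alternatives were DESeq2 1.42.0, limma-voom 3.58.1, RLE scaling, other filters, no robust dispersion, no block, other designs, each mouse left out, and mice 484 and 485 left out (added after seeing the data).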

Additional observations from a re-analysis of the deposited data

Results flagged for a closer look

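The dmPGE2 effect differed between the dates for 32 of the 42 named genes examined, by the edgeR test of the difference itself. Of the named genes, 12 had been picked for the largest differences in this same test, so the count is not a share to read beside the 0.99% of all 13942 genes. Values are log2 change on date 2 minus log2 change on date 1. The largest were those of Nr4a1 (-5.26), Hey1 (-4.83), Atf3 (-4.76), Id1 (-4.37), Klf4 (-4.08), Id3 (-4.07), Ptgs2 (-4.04) and Dusp5 (-4.00). Atf3, a stress-response factor, was at 34.3, 13.2, 51.7 and 31.2 CPM with vehicle and at 42.2, 21.1, 59.6 and 32.2 CPM with dmPGE2 in mice 483 to 486. It had a log2 change of 5.08 ± 0.37 on date 1 and of 0.32 ± 0.14, not called, on date 2. Id3, of the same family as Id1, was higher in 4 of 4 mice on date 2 (log2 1.05 ± 0.18, adjusted p = 0.0699).

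Differences of intermediate size were those of Fosb (-3.72), Hes1 (-3.59), Btg2 (-2.96), Cdkn1a (-2.91), Nr4a2 (-2.32), Rgs2 (-2.21), Cebpb (-2.19), Csrnp1 (-2.04) and Tiparp (-1.91). Ppp1r15a (-1.78), Rrad (-1.68), Bhlhe40 (-1.64), Fam110a (-1.62), Junb (-1.57), Egr1 (-1.38), Fos (-1.19), Jun (-0.85) and Hspa5 (-0.49) followed.

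Toward higher values on date 2 stood Polh (1.55), Ccbl2 (1.01), Cxcr4 (0.88), Rpp25l (0.78), Rsrp1 (0.77) and Mycn (0.74). Polh, a translesion DNA polymerase, had a log2 change of -0.85 on date 1 and 0.69 on date 2, neither of them called. The calls for Polh, Ccbl2 and Rpp25l were lost without most single mice. Rpp25l was lower with dmPGE2 on date 1 (-0.90 ± 0.11) and was not called on date 2 (-0.12 ± 0.14).

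Of 123 groups of 4 libraries or 4 changes examined for 41 genes, 5 had 1 value far from the other 3, where chance flags about 1 group in 20. In the vehicle libraries mouse 485 had 105 CPM of Ptgs2, against 33.9 to 44.7 CPM in the others, and 617 CPM of Cebpb, against 327 to 360 CPM. Mouse 484 had 39.0 CPM of Ptger1 with vehicle, against 55.5 to 57.4 CPM. With dmPGE2 mouse 485 had 75.1 CPM of Id1, against 40.5 to 46.3 CPM, and mouse 483 had 173 CPM of Rsrp1, against 224 to 227 CPM. None of the changes within mice stood apart in this way.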

How the results depend on the processing

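The count of genes changed by dmPGE2 on date 2 was 31. It was 82 with DESeq2, 47 with limma-voom, 47 with a filter of at least 5 CPM in at least 4 libraries, 49 with 1 dmPGE2 term per age, and 12 without mice 484 and 485. Without the replicate block it was 0 (534 genes at an unadjusted p under 0.05 in edgeR). It ranged from 0 to 31 when each mouse was left out. RLE scaling, no filter, no robust dispersion and the 16-library fit gave 31, 33, 28 and 29. Of the 29 in the 16-library fit, 21 were among the 31, and so were 21 of those called without mouse 485. The count for the difference between dates was 138, with 245 for DESeq2, 74 without mice 484 and 485, 110 without the replicate block and 99 to 129 with a mouse left out. For the age difference the count of 0 became 8 with DESeq2, 1 without a filter, 1 with the stricter filter and 0 to 3 with a mouse left out. No replicate block left it at 0. The vehicle count of 1472 ranged from 902 to 1346 with a mouse left out.

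Immediate-early genes called numbered 9, with 16 for DESeq2, 14 for limma-voom and 0 without the replicate block, and 0 to 8 with a mouse left out. For cAMP-CREB targets the count of 4 became 9 with DESeq2, 7 with a term per age, 0 without the replicate block, 1 without mice 484 and 485, and 0 to 4 with a mouse left out. For MAP kinase feedback the count of 2 became 0 without the block and 0 to 1 with a mouse left out. Signs turned for genes near 0. The log2 change of Jun was -0.027 without mice 484 and 485 and went from -0.030 to 0.019 with a mouse left out, that of Ptger1 from -0.18 to 0.10 and that of Ptger3 from -0.0068 to 0.043. The vehicle difference of Ptger4 went from -0.18 to 0.087 and that of Ptger1 from -0.16 to 0.057. The cause of these shifts was not tested. Leaving out a mouse lowers the residual degrees of freedom from 3 to 2. The age comparison rests on 2 mice per age, and on 1 of an age when a mouse is left out, whose spread is then taken from the others.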
